A study of Mus musculus with 6 samples.

Results

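Genes of protein folding in the endoplasmic reticulum (ER) and of its stress responses were followed while cultured mouse fat precursors turned into beige adipocytes. The set is a list of 35 genes, and its members are the rows of the deposited count table whose symbol is on that list. All 35 were found among the 45808 genes of the table, and all 35 were among the 14459 genes with enough counts to be tested. By role they are 11 chaperones and cofactors, 4 protein disulfide isomerases, 4 genes of ER-associated degradation, 3 stress sensors, 4 transcription factors, 4 regulators that act after ATF4 and CHOP, and 5 enzymes of amino acid and one-carbon metabolism.

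The ER is where secreted and membrane proteins fold. Chaperones such as BiP (Hspa5) hold unfolded chains, disulfide isomerases form and shuffle the bonds between cysteines, and chains that do not fold are moved out to the proteasome by ER-associated degradation. The unfolded protein response adjusts this capacity through 3 sensors in the ER membrane. IRE1 (Ern1) splices the Xbp1 mRNA, ATF6 (Atf6) is cut to release a transcription factor, and PERK (Eif2ak3) phosphorylates eIF2 alpha, which slows translation in general and raises that of Atf4. ATF4 also answers to amino acid shortage and other signals, and its targets include Atf5, CHOP (Ddit3), Trib3 and the enzymes that make asparagine and serine. Adipocytes are secretory cells: their hormone adiponectin is folded and joined by disulfide bonds in the ER. These sensors are controlled largely by splicing, cleavage and phosphorylation, which counts per gene do not measure, and spliced and unspliced Xbp1 are counted together.

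The series concerns Naa10, part of an enzyme that acetylates protein amino termini, in beige fat. All 6 libraries analysed here are labelled WT and come from the stromal-vascular fraction of the inguinal white fat pad (male mice, aged 8 weeks), so no library carries an altered gene. Day 0 is confluent cells without induction. Day 2 followed 2 days in a medium with IBMX (0.5 mM), dexamethasone (5 µM), indomethacin (125 µM), insulin (850 nM), T3 (1 nM) and rosiglitazone (1 µM), and day 6 a further stay in medium that kept only the last 3 of these agents. Each day has 2 libraries, numbered 76 and 77, called biological replicates by the series. The labels do not say whether they stem from separate mice or separate cultures, and p-values thus measure only how far these libraries spread, which may be technical. Primary cells of this fraction are a mixture: summed over 6 markers each, adipocyte genes went from 86.4 to 106 CPM at day 0 to 3819 to 4108 at day 2 and 26040 to 31630 at day 6, and stromal progenitor genes from 1925 to 1974 CPM through 1185 to 1375 to 726 to 1082. Of the 6 progenitor markers, 4 were called lower at day 2 and none higher. The means of Ly6a (560 to 652 CPM) and Pi16 (16.5 to 20.5 CPM) were above day 0 at day 2, against the sum. Macrophage markers (6 genes) summed to 25.5 to 51.7 CPM at days 0 and 2. Endothelial, mural and Schwann cell markers summed to at most 33.1, 125 and 2.78 CPM in any library, and no marker was at 0 in all 6. The part of these shifts in the members' changes was not tested. In such bulk samples, fewer cells of a type and less RNA per cell cannot be told apart.

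Libraries held 22522221 to 29458374 counts in genes, so that a count of 0 allows at most 0.0993 to 0.150 CPM (3 counts, counting error only). Levels are CPM, the reads of a gene per 1000000 reads of its library after TMM adjustment of that total, as the mean ± SD of 2 libraries. Pairs of values are given in the order 76, 77. Where days are said not to overlap, this describes the 2 libraries of each day. How many of all genes separate in that way was not counted. A gene is called higher or lower where edgeR's quasi-likelihood test gave a Benjamini-Hochberg adjusted p under 0.05 over all genes tested. Day 2 against day 0 and day 6 against day 0 share the day 0 libraries, and day 6 against day 2 shares the day 2 libraries with the first of these, so their values are set side by side and are not independent of each other.

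The members together took 0.897% ± 0.00552 of all counts in genes on day 0, 0.915% ± 0.0244 on day 2 and 0.496% ± 0.0445 on day 6. The share at day 6 was 0.465% and 0.528% in libraries 76 and 77, below the 4 earlier libraries, which lay between 0.893% and 0.933%. Chaperones went from 0.366% ± 0.00212 to 0.454% ± 0.0162 and then 0.227% ± 0.0204 of the counts, while the disulfide isomerases stood at 0.285% ± 0.00163, 0.281% ± 0.00919 and 0.126% ± 0.0189. The transcription factors took a different course, with 0.105% ± 0.00113 on day 0, 0.0582% ± 0.00108 on day 2 and 0.0510% ± 0.00211 on day 6. These shares were not tested, nor was the part played by macrophage markers, which summed to 117 and 49.4 CPM in the day 6 libraries. Genes of the mitochondrial genome took 0.502% to 0.555% on day 0, 1.13% to 1.30% on day 2 and 3.14% to 3.89% on day 6, and the part of this shift in the members' shares was not tested.

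At day 2, 9 of the 35 members were higher than at day 0 and 13 were lower, against 33.6% of all genes tested in each direction. None of the 9 passed 2-fold (12.3% of all genes were higher by over 2-fold), whereas 6 members were lower by over 2-fold (17.9% of all genes). Between day 2 and day 6, 7 members were higher and 21 lower, against 38.2% and 27.5% of all genes. Without the day 0 library 77 the 7 became 4. Over 2-fold these were 1 and 6 members, against 19.2% and 10.4% of all genes. From day 0 to day 6, 3 members were higher and 27 lower, against 35.9% and 35.1% of all genes, and over 2-fold 1 and 9, against 18.5% and 18.4%. Without the day 6 library 76 the 3 became 5. The median log2 change of the members was 0.020, -0.44 and -0.71 in these 3 comparisons, and that of all genes tested 0.0042, 0.12 and -0.012.

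Scaling by library totals in place of TMM moved the median of all genes by -0.358 from day 2 to day 6, by -0.246 from day 0 to day 6 and by 0.112 from day 0 to day 2 on the log2 scale. The share of calls that were higher went with it, from 58.1% to 37.1% and from 50.6% to 38.0% for the 2 comparisons with day 6, and the members then split into 3 higher and 25 lower, and 2 higher and 30 lower. Set against the median of all genes, which by construction takes out a shift that all genes share, 10 members lay above and 25 below from day 2 to day 6, 6 above and 29 below from day 0 to day 6, and 18 above and 17 below from day 0 to day 2.

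**Figure D1:**
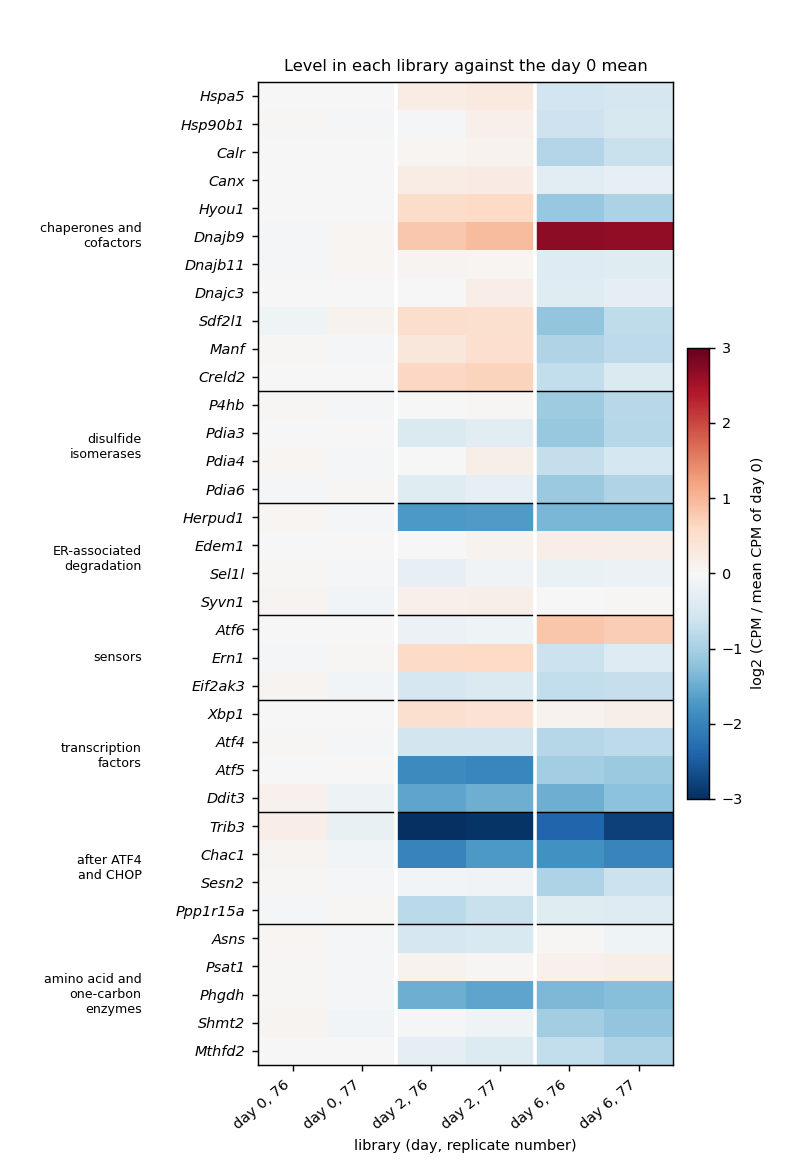
Log2 of each member's CPM in a library (columns, by day and replicate number) over its mean at day 0, with the 35 genes in rows by role; red is above and blue below the day 0 mean. Most chaperones are pale red at day 2 and blue at day 6, Dnajb9 is the darkest red, and Trib3, Chac1, Atf5, Ddit3, Herpud1 and Phgdh are blue from day 2 on.

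By mean level, 13 members were highest at day 2 and lowest at day 6: Hspa5, Hsp90b1, Calr, Canx, Hyou1, Dnajb11, Dnajc3, Sdf2l1, Manf, Creld2, P4hb, Pdia4 and Ern1. Another 9 were highest at day 0 and lowest at day 6 (Pdia3, Pdia6, Sel1l, Eif2ak3, Atf4, Chac1, Sesn2, Shmt2 and Mthfd2), and 7 were highest at day 0 and lowest at day 2 (Herpud1, Atf5, Ddit3, Trib3, Ppp1r15a, Asns and Phgdh). Highest at day 6 were 4, namely Dnajb9, Edem1, Psat1 and Atf6, and Syvn1 and Xbp1 were highest at day 2 and lowest at day 0. These orders rest on means, and several neighbouring days did not differ beyond the spread, as given gene by gene. The share of all genes tested in each order was not counted, so these counts describe the members only.

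**Figure D2:**
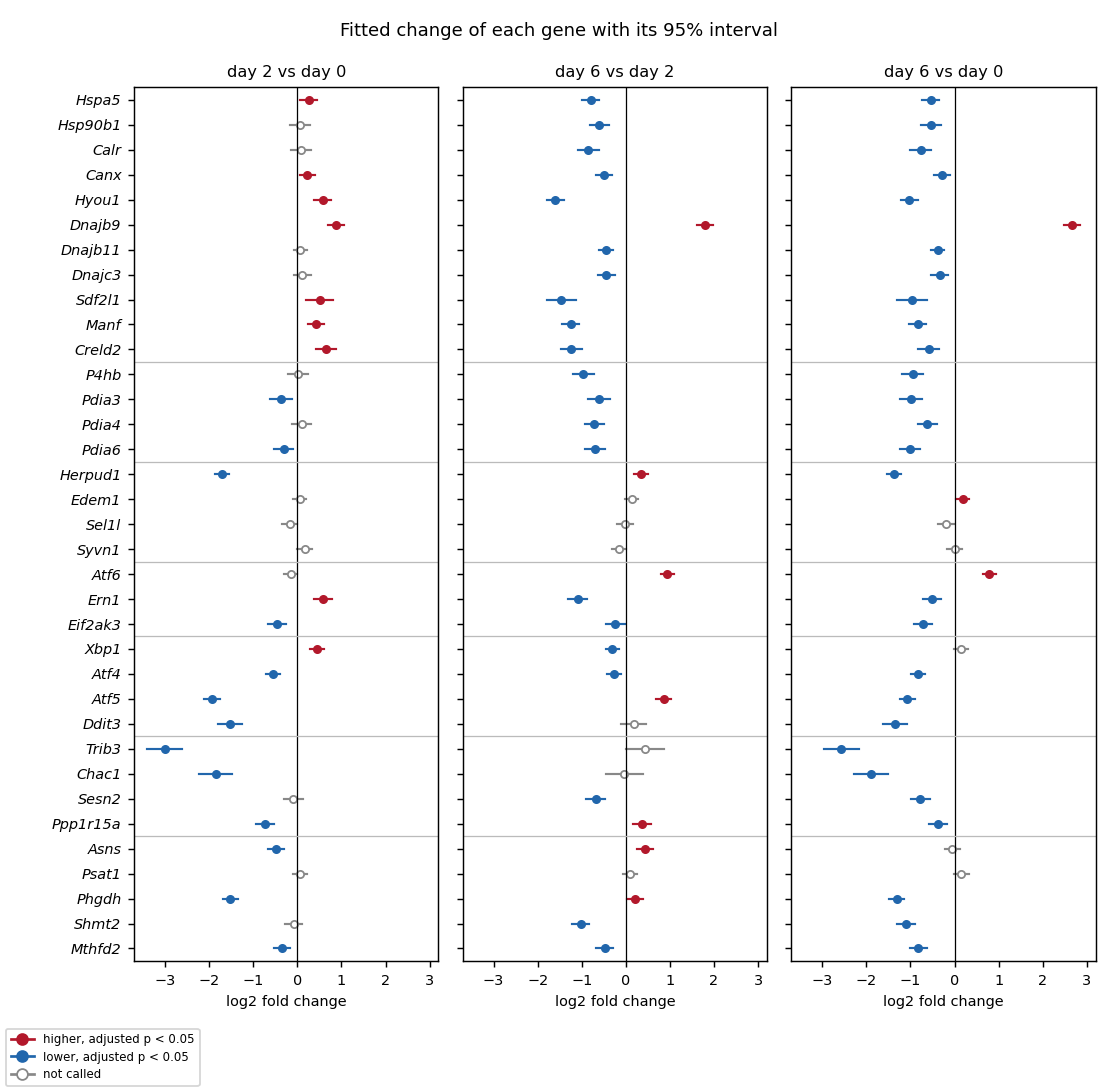
Fitted log2 fold change (points) with its 95% interval (lines) for each of the 35 members in the 3 comparisons; red is called higher, blue called lower and open grey not called. In the panel of day 6 against day 0, 27 genes lie on the lower side and Dnajb9, Atf6 and Edem1 on the higher side among those called.

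Most chaperones and cofactors of the ER lumen and membrane rose at day 2 and nearly all fell by day 6. Of the 11, 7 were higher at day 2 and none lower, against 33.6% of all genes tested each way. Then 10 were lower at day 6 than at day 2 (27.5% of all genes). Against day 0, 10 were lower at day 6 (35.1% of all genes), with Dnajb9 as the exception in both. The count of 7 ranged from 4 to 8 over the alternative settings, with 4 without the day 0 library 76 or the day 2 library 76, and no chaperone was called lower at day 2 in any of them. At day 6 against day 2 the 10 lower calls stood in every alternative.

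The ER stress element (ERSE) is a known promoter element of the unfolded protein response, which ATF6 and XBP1 bind with the factor NF-Y. The element was searched as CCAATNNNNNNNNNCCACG on both strands of a window from 250 bases before to 50 bases after each RefSeq transcription start (GRCm38.p6). It was found in 39 of 32851 windows (0.119%), and in 17 of the 10396 tested genes that have one (0.164%). Of the 32 members with a window, 8 held it: Hspa5, Hsp90b1, Calr, Canx, Dnajc3, Creld2, Pdia6 and Syvn1. Of the 11 chaperones and cofactors these are 6, while Dnajb9, Dnajb11 and Sdf2l1 had a window without it. Hyou1, Manf and Atf6 had no window. Their sites are printed because they mark which members share the element, on the gene's strand with the fixed letters in capitals; on the opposite strand the element reads CGTGG first and ATTGG last.
Hspa5, chr2:34772020-34772048, plus strand: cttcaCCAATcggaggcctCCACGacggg
Hsp90b1, chr10:86705528-86705661, minus strand: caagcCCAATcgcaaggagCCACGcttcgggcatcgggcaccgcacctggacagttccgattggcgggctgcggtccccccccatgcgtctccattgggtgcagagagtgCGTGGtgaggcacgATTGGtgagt
Calr, chr8:84847070-84847098, minus strand: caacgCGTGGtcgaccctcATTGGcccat
Canx, chr11:50325795-50325823, minus strand: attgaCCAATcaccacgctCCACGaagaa
Dnajc3, chr14:118937822-118937850, plus strand: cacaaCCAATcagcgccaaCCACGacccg
Creld2, chr15:88819515-88819543, plus strand: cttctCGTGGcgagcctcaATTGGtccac
Pdia6, chr12:17266486-17266514, plus strand: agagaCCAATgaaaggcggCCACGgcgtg
Syvn1, chr19:6046527-6046555, plus strand: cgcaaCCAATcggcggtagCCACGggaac
Hsp90b1 held 2 copies in opposite directions, and the stretch between them is printed with it. Of these 8 members, 3 were higher and 1 lower at day 2 (33.6% of all genes tested each way). From day 2 to day 6, 7 were lower (27.5% of all genes), with a median log2 change of -0.65. The other 9 tested genes with the element had 3 higher and 3 lower in that comparison, with a median of 0.062 and a range of -3.03 to 6.33. Among the 3 lower was Derl3, a gene of ER-associated degradation outside the set (-3.03). Its level was low, with means of 1.57 CPM at day 2 and 0.181 CPM at day 6. Chaperones and isomerases with a window but no exact ERSE match were lower then too, namely Sdf2l1 (-1.47), P4hb (-0.96), Pdia4 (-0.72), Pdia3 (-0.61) and Dnajb11 (-0.45). Inexact forms of the ERSE were not searched, and Dnajb11 held the ERSE-II given further on. Dnajb9 was higher (1.79). The part of the element in these changes was not tested. A matching sequence is not a bound site.

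Hspa5, which encodes the abundant chaperone BiP and lies on chromosome 2 from 34771970 to 34777547 (plus strand), measured 809 and 796 CPM on day 0, 932 and 986 on day 2, and 538 and 565 on day 6. Both day 2 libraries were the highest and both day 6 libraries the lowest, with no overlap between days. It rose 1.19-fold at day 2 (log2 change 0.26, SE 0.084, edgeR adjusted p = 0.0247) and fell 1.74-fold from there to day 6 (log2 change -0.80, SE 0.084, edgeR adjusted p = 5.88e-05). Its rise was not called without the day 0 library 76 (edgeR adjusted p = 0.103), the day 2 library 76 (0.0629) or the day 2 library 77 (0.133). Day 6 stood 1.46-fold below day 0 (edgeR adjusted p = 0.000484).

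Hyou1, a large chaperone that releases nucleotide from BiP, showed a wider swing, with 193 and 189 CPM on day 0, 279 and 289.6 on day 2, and 87.4 and 99.5 on day 6. No 2 days overlapped, and the day 6 libraries lay below all others. The gene rose 1.49-fold at day 2 (log2 change 0.57, SE 0.082, edgeR adjusted p = 0.000337) and fell 3.04-fold to day 6 (log2 change -1.60, SE 0.084, edgeR adjusted p = 1.32e-06), which left it 2.04-fold below day 0 (edgeR adjusted p = 1.02e-05). Per 100 counts of Hspa5 in the same library, a ratio that scaling cannot move, Hyou1 had 23.8 ± 0.0536 counts on day 0, 29.7 ± 0.376 on day 2 and 16.9 ± 0.964 on day 6.

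Sdf2l1, which keeps BiP and its clients from aggregating, Manf, a secreted ER protein that binds BiP, and Creld2, an ER protein with epidermal growth factor-like domains, had the same order of days. Creld2 measured 31.5 and 31.0 CPM on day 0, 48.4 and 49.7 on day 2, and 18.8 and 23.0 on day 6, and it rose 1.57-fold (edgeR adjusted p = 0.000421) and then fell 2.35-fold (edgeR adjusted p = 1.27e-05). For Manf the libraries gave 68.9 and 65.1 CPM on day 0, 84.7 and 94.6 on day 2, and 36.0 and 39.1 on day 6, with a rise of 1.34-fold (edgeR adjusted p = 0.00175) and a fall of 2.39-fold (edgeR adjusted p = 4.23e-06). Sdf2l1 was the scarcest chaperone by CPM, with 18.3 and 21.6 CPM on day 0, 28.7 and 27.8 on day 2, and 8.75 and 11.7 on day 6. In Creld2, Manf and Sdf2l1 the day 2 pair was highest and the day 6 pair lowest without overlap, a separation not counted over all genes. Sdf2l1 rose 1.42-fold (edgeR adjusted p = 0.00978), a call lost without the day 0 library 76 (0.0869) or the day 2 library 76 (0.0542), and it fell 2.77-fold to day 6 (edgeR adjusted p = 3.90e-05). Of Manf's exonic length, 9.3% overlaps other genes, mostly on the opposite strand, and no source used here gives the strand setting of the counting.

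Dnajb9 (ERdj4), a J-domain partner of BiP that also holds IRE1 inactive, went against the rest of the group. It lies on chromosome 12 from 44205559 to 44210326 (minus strand) and measured 38.0 and 40.7 CPM on day 0, 69.2 and 76.1 on day 2, and 253 and 249 on day 6. Every day 6 library was above every day 2 library, and these were above both day 0 libraries. The gene rose 1.85-fold by day 2 (log2 change 0.88, SE 0.078, edgeR adjusted p = 2.25e-05), 3.45-fold more by day 6 (log2 change 1.79, SE 0.077, edgeR adjusted p = 5.54e-07) and 6.37-fold in all (95% interval 5.61 to 7.24). Per 100 counts of Hspa5 in the same library there were 4.91 ± 0.293 counts of Dnajb9 on day 0, 7.58 ± 0.203 on day 2 and 45.5 ± 2.10 on day 6, with 47.0 and 44.1 in the 2 day 6 libraries. Of the gene's 50-base stretches, 5.5% also occur in transcripts of the locus Gm6568. By level per length, it moved from place 29 among the 35 members at day 0 to place 6 at day 6.

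**Figure D3:**
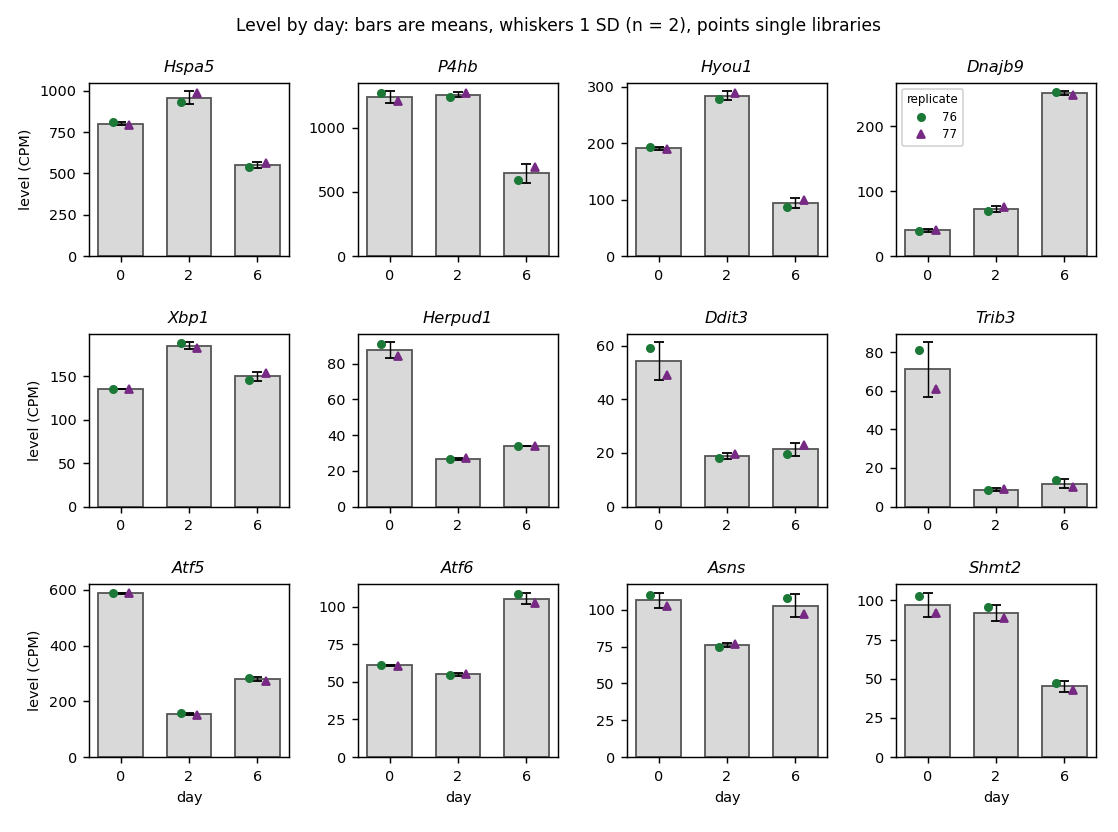
CPM of 12 members by day; bars are means of 2 libraries, whiskers 1 SD, and green circles and purple triangles libraries 76 and 77. Hspa5, Hyou1 and Xbp1 peak at day 2, Dnajb9 rises to 253 and 249 CPM at day 6, and Herpud1, Ddit3, Trib3 and Atf5 are highest at day 0.

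The lectin chaperones calreticulin (Calr) and calnexin (Canx), which bind sugar-bearing chains, changed little at day 2 and were lower at day 6. Calr measured 1069 and 1090.4 CPM on day 0, 1119 and 1169 on day 2, and 584 and 682 on day 6, and its day 2 change of 1.06-fold was not called (95% interval 0.903 to 1.24, edgeR adjusted p = 0.486). It then fell 1.81-fold to day 6 (log2 change -0.85, SE 0.10, edgeR adjusted p = 0.000114). Canx measured 528 and 516 CPM on day 0, 608 and 617 on day 2, and 420.1 and 443 on day 6. Canx was called 1.17-fold higher at day 2 (edgeR adjusted p = 0.0285), a call lost without the day 0 library 76 (0.108) or the day 2 libraries 76 (0.0979) or 77 (0.111). At day 6 it was 1.21-fold lower than at day 0 (edgeR adjusted p = 0.0126), a call lost without the day 0 libraries 76 (0.0828) or 77 (0.0664), and 1.42-fold lower than at day 2 (edgeR adjusted p = 0.000552).

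Hsp90b1 (GRP94), Dnajb11 and Dnajc3, the last of these also known as an inhibitor of PERK, were not called at day 2, save Dnajb11 without the day 0 library 77 (higher, edgeR adjusted p = 0.0478). Hsp90b1 had 501 and 482 CPM on day 0, 476 and 549 on day 2, and 322 and 354 on day 6, so its day 2 libraries spanned the day 0 range. Its fitted day 2 change was 1.04-fold (95% interval 0.893 to 1.22), and without the day 2 library 77 it turned to a log2 value of -0.032. At day 6 it was 1.52-fold below day 2 (edgeR adjusted p = 0.000740), Dnajb11 1.37-fold (edgeR adjusted p = 0.000434) and Dnajc3 1.36-fold (edgeR adjusted p = 0.00179). Dnajb11 went through 120.5 ± 5.64, 126 ± 0.496 and 92.3 ± 1.28 CPM and Dnajc3 through 182 ± 2.30, 196 ± 18.5 and 144 ± 5.34 CPM. Of Hsp90b1's exonic length, 15.7% overlaps the loci 1810014B01Rik, Gm15344 and Gm25745.

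All 4 protein disulfide isomerases were lower at day 6 than at either earlier day, in every alternative setting, and none was higher at day 2. Of all genes tested, 27.5% were lower from day 2 to day 6, 35.1% were lower from day 0 to day 6, and 33.6% were higher at day 2. P4hb, the classical isomerase and a subunit of the collagen prolyl hydroxylase, lies on chromosome 11 from 120560298 to 120573253 (minus strand) and had the highest level per length of all members, 433 ± 15.5 CPM per kb of exon at day 0. Its libraries gave 1270.0 and 1207 CPM on day 0, 1242 and 1269 on day 2, and 594 and 693 on day 6, so that days 0 and 2 overlapped and both day 6 libraries lay below them. Its day 2 change was not called (1.01-fold, 95% interval 0.862 to 1.19), and the gene fell 1.95-fold to day 6 (log2 change -0.96, SE 0.10, edgeR adjusted p = 6.16e-05).

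Pdia3 (ERp57), which works with calnexin and calreticulin on glycoproteins, measured 832 and 828 CPM on day 0, 613 and 666 on day 2, and 376 and 460.4 on day 6. The days did not overlap and followed each other downward. It was called 1.30-fold lower at day 2 (edgeR adjusted p = 0.0155) and 1.99-fold lower at day 6 than at day 0 (edgeR adjusted p = 6.97e-05). The day 2 call was lost without the day 0 libraries 76 (0.0714) or 77 (0.221), without the day 2 library 76 (0.123) and with library totals (0.0955). Pdia6 (P5), an isomerase that also acts on IRE1, gave 457 and 484 CPM on day 0, 365 and 395 on day 2, and 217 and 251 on day 6. Its day 2 call of 1.24-fold lower (edgeR adjusted p = 0.0197) was lost without any of the 4 libraries compared (day 0, 0.0541 and 0.455; day 2, 0.148 and 0.0531) and with library totals (0.145). Its fall of 2.01-fold from day 0 to day 6 (edgeR adjusted p = 2.70e-05) and that of Pdia4 (ERp72) of 1.53-fold (edgeR adjusted p = 0.000448) stood in all alternatives. Pdia4 went through 226 ± 11.1, 243 ± 19.4 and 148 ± 13.1 CPM.

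Of the 4 genes of ER-associated degradation, Herpud1 was called in all 3 comparisons and the other 3 genes together in 1. Of all genes tested, 67.1% were called at day 2, 65.7% from day 2 to day 6 and 70.9% from day 0 to day 6. Herpud1, a membrane protein that joins the degradation complex, lies on chromosome 8 from 94386438 to 94395377 (plus strand) and measured 90.8 and 84.4 CPM on day 0, 26.4 and 27.2 on day 2, and 34.1 and 33.8 on day 6. Both day 0 libraries stood far above the others, and the day 6 pair lay above the day 2 pair. It fell 3.27-fold at day 2 (log2 change -1.71, SE 0.071, edgeR adjusted p = 7.52e-07) and was still 2.58-fold lower at day 6 (edgeR adjusted p = 8.09e-07). A partial return from day 2 to day 6 was called (1.27-fold, edgeR adjusted p = 0.00324) but was lost without the day 0 library 77 (0.0593) and in a fit of those 2 days alone (0.0544), and with library totals its log2 value was -0.016.

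Herpud1 holds 2 stress elements in its RefSeq window, shown because Herpud1 was the only member to hold both: an ERSE-II (ATTGGNCCACG, in 12 windows, 0.0365%) and a CARE, the element that ATF4 binds with C/EBP partners (searched as TGATGNAA on both strands, in 1304 windows, 3.97%). Capitals mark the fixed letters, with the CARE first and on the opposite strand.
Herpud1, chr8:94386312-94386392, plus strand: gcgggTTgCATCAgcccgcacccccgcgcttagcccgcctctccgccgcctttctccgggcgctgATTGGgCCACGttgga
The only other member with an ERSE-II was Dnajb11, just after its start, and no member held the element TGACGTGG of XBP1 and ATF6, which 222 windows (0.676%) hold.

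Sel1l and Syvn1 (HRD1) form the ligase complex that passes ER proteins to the proteasome, and Edem1 recognises trimmed glycans on them. Edem1 measured 114 and 113 CPM on day 0, 115 and 121 on day 2, and 129 and 129 on day 6, and its rise from day 0 to day 6 of 1.14-fold was called (edgeR adjusted p = 0.0332). That call was lost without the day 0 libraries 76 (0.128) or 77 (0.139), without the day 2 library 76 (0.0515), with DESeq2 (0.132), RLE factors (0.0658) and no filter (0.0787), and with library totals its log2 value was -0.061. Sel1l went through 210.1 ± 6.07, 186 ± 12.8 and 184 ± 1.44 CPM and was called in none of the 3 comparisons, with day 6 at 0.877-fold of day 0 (95% interval 0.777 to 0.991, edgeR adjusted p = 0.0542). Syvn1 measured 55.0 and 49.6 CPM on day 0, 58.2 and 59.2 on day 2, and 52.0 and 53.3 on day 6, with both day 6 libraries inside the day 0 range, and was not called either (day 6 against day 0 1.01-fold, 95% interval 0.895 to 1.13). Several alternatives did call these genes. Sel1l was called lower from day 0 to day 6 with DESeq2 (0.0319), RLE factors (0.0307), library totals (0.00144) and a mean of 1 CPM or more (0.0340), and lower at day 2 with that filter (0.0442), with those 2 days alone (0.0386) and without the day 6 libraries 76 (0.0444) or 77 (0.0489). Syvn1 was called higher at day 2 with RLE factors (0.0294), library totals (0.0120) and those 2 days alone (0.0489), and without the day 6 libraries 76 (0.0425) or 77 (0.0406). From day 2 to day 6 Syvn1 was called lower with RLE factors (0.0212), library totals (0.000478), those 2 days alone (0.0114) and without the day 0 library 77 (0.0116), and with library totals so was Sel1l (0.00367). With library totals Syvn1 was also lower from day 0 to day 6 (0.0234).

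The 3 sensors took 3 different courses. Atf6 lies on chromosome 1 from 170704674 to 170867771 (minus strand) and measured 61.4 and 60.8 CPM on day 0, 54.3 and 55.5 on day 2, and 108 and 103 on day 6. Both day 6 libraries were well above the 4 earlier ones, and the day 2 pair was slightly below the day 0 pair. Atf6 rose 1.92-fold from day 2 to day 6 (log2 change 0.94, SE 0.064, edgeR adjusted p = 4.99e-06) and 1.72-fold from day 0 (log2 change 0.79, SE 0.064, edgeR adjusted p = 1.06e-05), and its day 2 change of 0.898-fold was not called (edgeR adjusted p = 0.0623). That day 2 change was called lower with a mean of 1 CPM or more (0.0356), with those 2 days alone (0.0349) and without the day 6 libraries 76 (0.0431) or 77 (0.0485). Atf6 and Dnajb9 were the members called higher at day 6 than at day 0 in every alternative. Of all genes tested, 35.9% were higher in the main fit, and the share higher in every alternative was not counted.

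Ern1, the gene of IRE1, measured 38.3 and 39.7 CPM on day 0, 58.0 and 59.0 on day 2, and 25.1 and 29.7 on day 6, with the day 2 pair highest and the day 6 pair lowest. It rose 1.502-fold at day 2 (log2 change 0.59, SE 0.087, edgeR adjusted p = 0.000432) and then fell 2.14-fold (log2 change -1.10, SE 0.090, edgeR adjusted p = 1.38e-05) to 1.42-fold below day 0 (edgeR adjusted p = 0.00110). Eif2ak3, the gene of PERK, gave 34.8 and 30.9 CPM on day 0, 23.1 and 24.4 on day 2, and 19.8 and 20.4 on day 6, each day below the one before without overlap. It fell 1.38-fold at day 2 (edgeR adjusted p = 0.00169) and 1.63-fold by day 6 (edgeR adjusted p = 0.000154). The step from day 2 to day 6 was called at 1.18-fold lower (edgeR adjusted p = 0.0449) but not with the replicate number as a block (0.0518), without filter (0.0535), or without the day 0 library 76 (0.0551), the day 2 libraries 76 (0.0793) or 77 (0.171), or the day 6 libraries 76 (0.114) or 77 (0.0548). Of its exonic length, 8.0% overlaps Gm43292 on the opposite strand. Per kb of exon, Ern1 and Eif2ak3 were among the lowest members at day 6, at 3.35 ± 0.403 and 3.34 ± 0.0770 CPM per kb, and Atf6 stood at 11.4 ± 0.430.

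Among the transcription factors, Xbp1 rose at day 2 and Atf4, Atf5 and Ddit3 fell. Xbp1, target of both ATF6 and IRE1, lies on chromosome 11 from 5520659 to 5525893 (plus strand) and measured 135 and 136 CPM on day 0, 188 and 182 on day 2, and 146 and 153 on day 6, with no overlap between days. It rose 1.36-fold at day 2 (log2 change 0.45, SE 0.068, edgeR adjusted p = 0.000485) and fell 1.24-fold after that (edgeR adjusted p = 0.00413). Its day 6 level was 1.10-fold that of day 0, which was not called (95% interval 0.990 to 1.23, edgeR adjusted p = 0.0933) except without the day 6 library 76 (0.0450), and with library totals the log2 value was -0.10.

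Atf4 lies on chromosome 15 from 80255184 to 80257541 (plus strand) and gave 249 and 234 CPM on day 0, 163 and 165 on day 2, and 133 and 139 on day 6, each day below the one before. It was 1.47-fold lower at day 2 (log2 change -0.55, SE 0.071, edgeR adjusted p = 0.000195) and 1.77-fold lower at day 6 than at day 0 (edgeR adjusted p = 1.57e-05). The step from day 2 to day 6, 1.21-fold lower (edgeR adjusted p = 0.00956), was not called without the day 2 library 77 (0.0532). Atf5, a relative of ATF4 whose translation is likewise raised by eIF2 alpha phosphorylation, lies on chromosome 7 from 44812256 to 44816658 (minus strand) and fell further, with 589 and 587 CPM on day 0, 158 and 151 on day 2, and 285 and 274 on day 6. Day 2 was lowest and day 6 between, without overlap. Atf5 fell 3.82-fold (log2 change -1.93, SE 0.077, edgeR adjusted p = 6.18e-07), rose again 1.81-fold (log2 change 0.86, SE 0.075, edgeR adjusted p = 1.96e-05) and at day 6 was 2.11-fold below day 0 (edgeR adjusted p = 4.30e-06). Per 100 counts of Atf4 in the same library, Atf5 had 244 ± 10.2 counts on day 0, 93.8 ± 3.79 on day 2, and 214 and 197 in the libraries of day 6. By level per length it was the third of the 35 members at day 0, with 295 ± 0.918 CPM per kb, above BiP at 189.7 ± 2.18. Of its exonic length 4.1% overlaps Il4i1 and Nup62 on the opposite strand.

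Ddit3, the gene of CHOP, a factor of prolonged ER stress that can lead to cell death and that also blocks C/EBP factors, lies on chromosome 10 from 127290774 to 127296288 (plus strand). It measured 59.3 and 49.2 CPM on day 0, 18.1 and 19.6 on day 2, and 19.7 and 23.1 on day 6. Both day 0 libraries were far above the rest, and days 2 and 6 lay close together. The gene fell 2.88-fold at day 2 (log2 change -1.52, SE 0.12, edgeR adjusted p = 1.15e-05) and was 2.54-fold lower at day 6 than at day 0 (edgeR adjusted p = 1.68e-05), while day 6 against day 2 was not called (1.13-fold, 95% interval 0.931 to 1.38, edgeR adjusted p = 0.230). Of its exonic length 4.7% overlaps Gm4189 and Mars on the opposite strand, and the annotation has 2 entries with the symbol, of which the longer was used for position and length.

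The regulators that act after ATF4 and CHOP had the lowest median log2 change of any role at day 2 (-1.30) and from day 0 to day 6 (-1.34). Of the 4, 3 were lower at day 2 and all 4 at day 6 against day 0, in every alternative. Of all genes tested, 33.6% were lower at day 2 and 35.1% at day 6 against day 0. Trib3, a pseudokinase that binds ATF4 and the kinase AKT, lies on chromosome 2 from 152337422 to 152344032 (minus strand) and measured 81.1 and 61.1 CPM on day 0, 8.39 and 9.28 on day 2, and 13.7 and 10.2 on day 6. Day 0 was far above the rest although its 2 libraries differed by the widest relative spread of any member that day (19.9%). Trib3 fell 8.06-fold at day 2 (95% interval as a ratio 0.0941 to 0.164; log2 change -3.01, SE 0.17, edgeR adjusted p = 2.78e-06), the steepest fitted fall of the 35 members, and was 5.94-fold lower at day 6 (edgeR adjusted p = 3.36e-06). From day 2 to day 6 it was not called (1.36-fold, edgeR adjusted p = 0.0685), but was with the replicate block (0.0283), without filter (0.00110) and without the day 0 library 76 (0.0424) or the day 6 library 77 (0.0136).

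Chac1, an enzyme that breaks down glutathione, lies on chromosome 2 from 119351229 to 119354381 (plus strand) and was the scarcest member, with 13.1 and 11.7 CPM on day 0, 3.09 and 3.77 on day 2, and 3.53 and 3.14 on day 6. Days 2 and 6 overlapped and lay below both day 0 libraries. It fell 3.62-fold at day 2 (log2 change -1.85, SE 0.16, edgeR adjusted p = 2.04e-05) and stayed 3.71-fold lower (edgeR adjusted p = 1.64e-05). Ppp1r15a (GADD34), which brings a phosphatase to eIF2 alpha and so ends the PERK signal, measured 28.6 and 29.8 CPM on day 0, 16.6 and 18.4 on day 2, and 22.7 and 22.2 on day 6. It fell 1.67-fold at day 2 (log2 change -0.74, SE 0.087, edgeR adjusted p = 0.000113) and was 1.30-fold lower at day 6 than at day 0 (edgeR adjusted p = 0.00457). Its 1.28-fold rise between days 2 and 6 (edgeR adjusted p = 0.00695) was lost with DESeq2 (0.0823), library totals (0.982), those 2 days alone (0.0820), and without the day 0 library 77 (0.0862) or the day 2 library 76 (0.0599). Sesn2, a sestrin that dampens growth signals under stress, fell later: it gave 119 and 112 CPM on day 0, 109.7 and 107 on day 2, and 60.8 and 73.7 on day 6, with a day 2 change of 0.939-fold that was not called (95% interval 0.810 to 1.09) and a fall of 1.61-fold from day 2 to day 6 (log2 change -0.69, SE 0.095, edgeR adjusted p = 0.000278).

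The CARE was found in 4 of the 32 members with a window (Herpud1, Trib3, Chac1 and Asns), against 290 of the 10396 tested genes with one (2.79%). In Trib3 it lies just after the start, and its sequence is not printed. Those of Chac1 and Asns are shown, on the gene's strand with the fixed letters in capitals, since these genes are known targets of ATF4.
Chac1, chr2:119351040-119351065, plus strand: tccctgccgTTgCATCActcctgcca
Asns, chr6:7693216-7693241, minus strand: ccagccacaTGATGaAActtcccgca
All 4 fell at day 2 (33.6% of all genes were lower), with a median log2 change of -1.78 and a range of -3.01 to -0.49. From day 2 to day 6 they had 2 higher and none lower (38.2% and 27.5% of all genes). Members without a match fell at day 2 too, with Atf5 at -1.93, Ddit3 at -1.52 and Phgdh at -1.52, while 9 of the 35 members were higher. Changes of the other tested genes with a CARE were not examined, and the part of the element was not tested. The match describes these letters only, and binding was not measured.

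Among the 5 enzymes of amino acid and one-carbon metabolism, which ATF4 is known to raise, none was higher at day 2 and 3 were lower. Of all genes tested, 33.6% were called in each direction at that day. Asns, which makes asparagine, measured 110.1 and 103 CPM on day 0, 74.9 and 76.97 on day 2, and 108 and 97.2 on day 6, so that day 2 was lowest and days 0 and 6 overlapped. It fell 1.40-fold (log2 change -0.49, SE 0.077, edgeR adjusted p = 0.000616) and rose 1.35-fold again (edgeR adjusted p = 0.00122), a rise lost with library totals (0.370). Day 6 against day 0 was not called (0.966-fold, 95% interval 0.855 to 1.09), save with library totals, which put it lower (0.00505).

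Serine is made by Phgdh and Psat1 in successive steps, and these genes differed. Phgdh gave 96.3 and 90.6 CPM on day 0, 33.9 and 31.1 on day 2, and 36.8 and 38.5 on day 6, and it fell 2.87-fold at day 2 (log2 change -1.52, SE 0.075, edgeR adjusted p = 1.50e-06) and was 2.48-fold lower at day 6 (edgeR adjusted p = 1.48e-06). Of its 50-base stretches, 47.8% occur in transcripts of the loci Gm7901, Gm9347, Gm8341 and Gm7669, so reads could be split or set aside between them, and its values are uncertain. Its call from day 2 to day 6 (1.16-fold, edgeR adjusted p = 0.0398) was lost with DESeq2 (0.359), RLE factors (0.139), no filter (0.0753) or those 2 days alone (0.460). It was also lost without the day 0 libraries 76 (0.0694) or 77 (0.504), the day 2 library 77 (0.247) or the day 6 library 77 (0.108), and its log2 value turned to -0.15 with library totals. Psat1 measured 167 and 160.2 CPM on day 0, 175 and 168 on day 2, and 179 and 186 on day 6, with the days in order and without overlap, but it passed the test in no comparison (day 6 against day 0 1.11-fold, 95% interval 0.997 to 1.25, edgeR adjusted p = 0.0748). Without the day 6 library 76 that change was called higher (0.0459), and with library totals Psat1 was called lower from day 2 to day 6 (log2 change -0.27, edgeR adjusted p = 0.0149).

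Shmt2 and Mthfd2, which pass one-carbon units from serine along the mitochondrial folate pathway, were lower at day 6. Shmt2 measured 103 and 91.9 CPM on day 0, 95.5 and 88.5 on day 2, and 47.4 and 42.7 on day 6, with days 0 and 2 overlapping and day 6 below both. It was 2.04-fold lower at day 6 than at day 2 (log2 change -1.03, SE 0.088, edgeR adjusted p = 1.71e-05), and its day 2 change was not called (0.946-fold, 95% interval 0.826 to 1.08). Mthfd2 gave 76.7 and 76.5 CPM on day 0, 63.0 and 57.5 on day 2, and 45.9 and 40.4 on day 6, and was 1.77-fold lower at day 6 than at day 0 (edgeR adjusted p = 3.69e-05). Its day 2 fall of 1.27-fold (edgeR adjusted p = 0.00538) was lost without the day 0 library 77 (0.185) or the day 2 library 77 (0.0607).

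Levels of different genes can be compared per kb of merged exon. At day 0 the highest members were P4hb (433 ± 15.5 CPM per kb), Calr (375 ± 5.18), Atf5 (295 ± 0.918), Pdia3 (264 ± 0.940) and Hspa5 (189.7 ± 2.18). At day 6 P4hb (225 ± 24.7) and Calr (219.8 ± 24.1) were close enough for their spreads to overlap, as were Atf5 (140.1 ± 3.76), Pdia3 (133 ± 19.0) and Hspa5 (130.4 ± 4.54), and Dnajb9 (98.4 ± 1.12) followed. The lowest members at day 6 were Chac1 (2.04 ± 0.167), Eif2ak3 (3.34 ± 0.0770), Ern1 (3.35 ± 0.403) and Trib3 (5.62 ± 1.15). Replicates of a member differed by a median coefficient of variation of 3.58% at day 0, 3.86% at day 2 and 5.73% at day 6.

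Other genes of the same pathways were counted from lists outside the set. Of all genes tested, 33.6% were higher and 33.6% lower at day 2, 38.2% and 27.5% from day 2 to day 6, and 35.9% and 35.1% from day 0 to day 6, and each list's counts are to be read against these shares. Of 23 tested genes of ER translocation and signal peptidase, which bring chains into the ER, 13 were higher and 2 lower at day 2, and 2 higher and 15 lower from day 2 to day 6. Ssr1, a subunit of the translocon-associated complex, went from 340.1 ± 5.93 to 151 ± 14.5 CPM (2.25-fold, edgeR adjusted p = 7.09e-06) between those days. Of 17 genes of N-glycosylation and glycan quality control, 5 were higher and 2 lower at day 2, both below the share of all genes, and 15 were lower and 2 higher from day 2 to day 6. Mogs, the glucosidase that trims the first sugar, went from 95.8 ± 10.0 to 37.0 ± 1.55 CPM (2.59-fold, edgeR adjusted p = 3.34e-06), while Stt3b, a catalytic subunit of the oligosaccharyltransferase, rose from day 0 to day 6, from 255 ± 10.6 to 527 ± 24.3 CPM (2.07-fold, edgeR adjusted p = 7.41e-06). Of 15 genes of ER oxidation and other isomerases, 7 were higher and 3 lower at day 2, and 3 higher and 8 lower from day 2 to day 6. Without the day 0 library 76 the 13 translocation genes became 8, without either day 6 library the 5 glycosylation genes became 8, and without the day 0 or day 2 library 77 the 3 oxidation genes became 1. The counts of 2 in these lists ran from 0 to 4 over single libraries left out. From day 0 to day 6, translocation genes had 6 higher and 12 lower, glycosylation genes 2 and 11, and oxidation genes 7 and 7. With library totals their higher counts were 1, 1 and 2. Tmx2, a membrane thioredoxin, went from 31.9 ± 1.32 to 126 ± 10.1 CPM (3.96-fold, edgeR adjusted p = 2.50e-07) from day 0 to day 6, and Pdia5 from 75.3 ± 2.62 to 21.4 ± 7.56 CPM (3.53-fold, edgeR adjusted p = 4.06e-05).

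The 19 genes of collagen folding and modification in the ER moved one way against day 0. At day 2, 15 were lower and none higher (33.6% of all genes each), and at day 6 all 19 were lower (35.1% of all genes), with a median log2 change of -1.11. From day 2 to day 6, 1 was higher and 14 were lower (38.2% and 27.5% of all genes). Plod2, which hydroxylates collagen lysines, went from 215 ± 15.9 to 50.3 ± 6.17 CPM (4.28-fold, edgeR adjusted p = 9.80e-07) from day 2 to day 6, and P4ha3, a partner subunit of P4hb, from 111 ± 7.40 to 17.5 ± 9.75 CPM (6.43-fold, edgeR adjusted p = 9.15e-05) from day 0 to day 6. Of the 23 other genes of ER-associated degradation that were tested, 10 were higher and 2 lower at day 2, and 11 higher and 5 lower at day 6 against day 0 (35.9% and 35.1% of all genes). The 10 became 6 and the 5 became 3 without the day 0 library 76, and the 2 ran from 1 to 4 over single libraries left out. From day 2 to day 6, 10 of these degradation genes were higher and 5 lower (38.2% and 27.5% of all genes). With library totals these were 4 and 11. From day 0 to day 6 Rnf5, a ubiquitin ligase of the ER membrane, went from 24.4 ± 1.03 to 68.1 ± 2.94 CPM (2.79-fold, edgeR adjusted p = 9.21e-07), and Man1b1, a mannosidase, from 119 ± 1.05 to 71.1 ± 3.53 CPM (1.67-fold, edgeR adjusted p = 2.16e-05).

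Of 22 relatives of the sensors and genes of eIF2 control, 13 were higher and 7 lower at day 2, against 33.6% of all genes in each direction. The 7 became 4 without the day 0 library 76 or the day 2 library 76, and 3 without the day 0 library 77. At day 2 Map3k5 (ASK1), a kinase that IRE1 signals to, went from 5.12 ± 0.199 to 40.8 ± 0.399 CPM (7.95-fold, edgeR adjusted p = 2.67e-07), and Creb3l1, an ATF6 relative tied to collagen secretion, from 131 ± 9.20 to 17.1 ± 2.71 CPM (7.68-fold, edgeR adjusted p = 5.11e-06). Of the 29 other targets of ATF4 and CHOP, 10 were higher and 13 lower at day 2, and 11 higher and 14 lower at day 6 against day 0 (35.9% and 35.1% of all genes), counts not far from the shares of all genes. From day 2 to day 6, 13 of them were higher and 10 lower (38.2% and 27.5% of all genes). From day 0 to day 6 Slc1a5, a glutamine carrier, went from 328 ± 0.286 to 3342 ± 469 CPM (10.2-fold, edgeR adjusted p = 1.97e-07), Pycr1, an enzyme of proline synthesis, from 45.9 ± 3.93 to 7.61 ± 2.49 CPM (6.07-fold, edgeR adjusted p = 4.52e-06). Jdp2, a transcription factor that binds ATF partners, went from 89.7 ± 0.322 to 12.1 ± 0.607 CPM (7.41-fold, edgeR adjusted p = 8.42e-07) at day 2. Of 15 other serine and folate enzymes, 8 were higher and 3 lower at day 2, with Shmt1 going from 4.63 ± 0.0888 to 27.3 ± 2.99 CPM (5.91-fold, edgeR adjusted p = 1.07e-06) and Aldh1l2, the mitochondrial enzyme that burns off formyl groups, from 127 ± 19.3 to 13.2 ± 2.58 CPM (9.70-fold, edgeR adjusted p = 1.06e-05). From day 2 to day 6, the sensor relatives and eIF2 genes had 8 higher (4 with library totals) and 10 lower, and the serine and folate enzymes 6 and 7. From day 0 to day 6 the counts were 12 and 6, and 8 and 4. No test was made of any list as a whole.

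**Figure D4:**
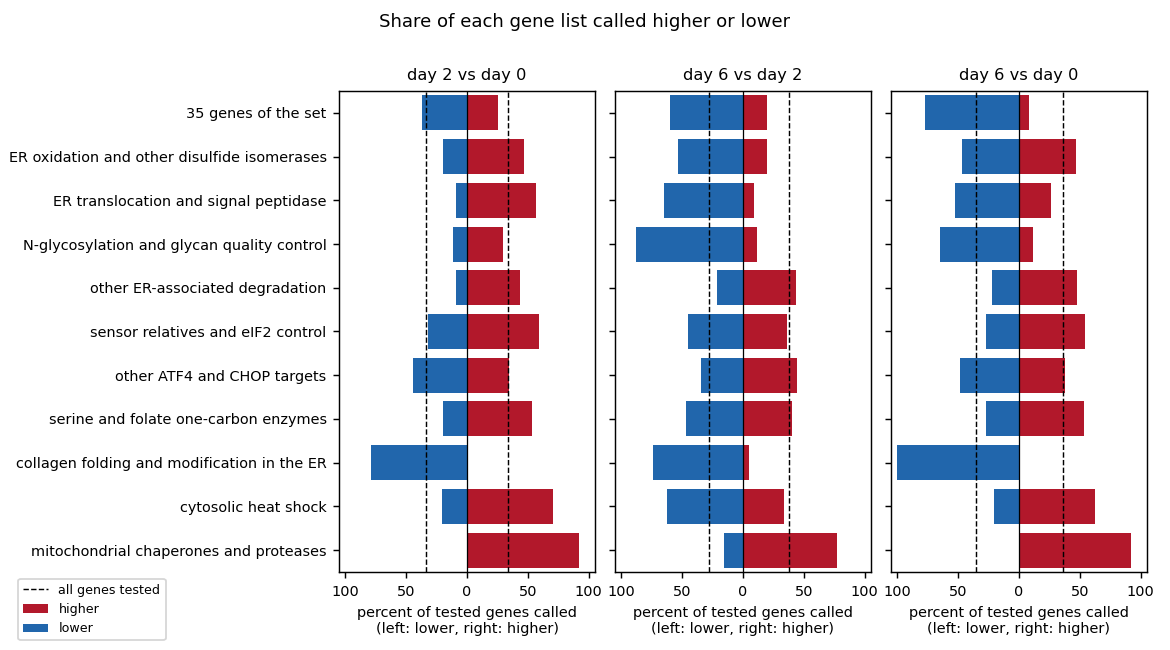
Percent of the tested genes of each list called higher (red, right) or lower (blue, left) in the 3 comparisons, with dashed lines at the share of all genes tested. The 35 members and the lists of glycosylation and collagen folding reach furthest left in the panel of day 6 against day 0, and mitochondrial chaperones furthest right.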

How the data were processed

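RNA of 6 libraries was measured by sequencing. The deposited table gives read counts per gene, although its column names say RPKM: the values are whole numbers with different totals. Per the submitters' processing notes, the authors used TopHat2 (2.0.13) for alignment and HTSeq (0.9.1) for counting, on mm10 (GRCm38). Annotation, strand and counting settings: not given in the sources used here. No normalization had been applied. HTSeq's summary lines (2.62% to 3.23% outside features, 4.40% to 4.91% ambiguous, 4.16% to 9.05% not unique) stayed out of library sizes and tests. The labels' protocols name PCR amplification and no molecular identifiers.

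Tests used edgeR (4.0.16, in R 4.3.3): its quasi-likelihood F test after TMM scaling and filterByExpr, fitted with a mean per day over all 6 libraries and 3 residual degrees of freedom. p-values were adjusted by Benjamini-Hochberg over all 14459 genes, and the common biological coefficient of variation was 0.0830. Counts of a day's libraries differed beyond sampling noise (chi-square per degree of freedom 7.22, 8.08 and 28.4). The alternatives were DESeq2 1.42.0, RLE factors, library totals, no filter, a mean of 1 CPM or more, only the 2 days compared, the replicate number as a block, and each library left out. Steps were tested on simulated counts.

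The numbers 76 and 77 were checked for pairing by correlating, over genes, how far libraries with the same number lay from the mean of their day. Pearson's r was 0.109, 0.112 and 0.213, and Spearman's rho was 0.0589, 0.0546 and 0.176, so the pairing is weak. No source used here says what they mark. Main values carry no block and do not treat the numbers as pairs, and the block was used only as an alternative.

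The members, roles and lists were chosen with earlier results of these data known. All members are named, and of each list the largest called rise and fall per comparison at a mean of 1 CPM or more could be named. Gene positions, lengths and overlaps come from the GENCODE annotation of GRCm38, and promoter sequences from RefSeq (GRCm38.p6), which matched 32 of the 35 members.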

Additional observations from a re-analysis of the deposited data

How the results depend on the processing

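Of 1365 recomputed changes of single members, 1255 kept their direction and side of the threshold, 51 lost their call, 30 gained one and 29 changed sign, and apart from those with library totals named here none of the sign changes was past the threshold. The members called higher from day 2 to day 6 were 7, but 3 with library totals, 4 with only those days and 4 to 7 over single libraries left out (4 without the day 0 library 77). From day 0 to day 6 they were 3, and 2 to 5 over libraries left out (5 without the day 6 library 76). Members lower by over 2-fold were 12 (not 6) and 17 (not 9) in these comparisons with library totals, and 1 member (not 0) was higher by over 2-fold at day 2 without the day 0 library 77. That omission moved the median of all genes by 0.142 at day 2 and by -0.137 from day 2 to day 6, and the fit of those days alone moved the latter by -0.138, with 49.8% of calls higher in place of 58.1%. The cause was not tested. The replicate block ended the call of Eif2ak3 from day 2 to day 6 (log2 change -0.24, edgeR adjusted p = 0.0518), gave one to Trib3 (0.43, edgeR adjusted p = 0.0283) and changed no other member's call.

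With library totals the log2 change turned for Sesn2 (0.020) and Shmt2 (0.032) at day 2, for Herpud1 (-0.016), Ddit3 (-0.18), Phgdh (-0.15), Edem1 (-0.23, edgeR adjusted p = 0.0181) and Psat1 (-0.27, edgeR adjusted p = 0.0149) from day 2 to day 6, and for Edem1 (-0.061), Psat1 (-0.089), Xbp1 (-0.10) and Syvn1 (-0.24, edgeR adjusted p = 0.0234) from day 0 to day 6. For Syvn1 it was also -0.021 with DESeq2, -0.020 with RLE factors and -0.011 with a mean of 1 CPM, and the last filter turned P4hb at day 2 (-0.0028). With only 2 days, Edem1 and Psat1 from day 2 to day 6 were -0.0026 and -0.043. Over libraries left out, log2 changes ran from -0.032 to 0.18 for Hsp90b1, -0.10 to 0.016 for Sesn2 and -0.13 to 0.0027 for Shmt2 at day 2. They ran from -0.18 to 0.10 for Chac1, -0.15 to 0.048 for Sel1l, -0.0089 to 0.16 for Edem1 and -0.049 to 0.11 for Psat1 from day 2 to day 6, and from -0.12 to 0.035 for Asns and -0.052 to 0.085 for Syvn1 from day 0 to day 6.

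Of 780 recomputed list counts, 78 moved by over 1.5 times. Translocation genes higher at day 2 ranged from 8 to 14 and those higher from day 2 to day 6 from 0 to 2; glycosylation genes higher at day 2 from 4 to 8; other degradation genes higher at day 2 from 6 to 13 and lower from day 0 to day 6 from 3 to 10; sensor relatives lower at day 2 from 3 to 7; cytosolic heat shock genes higher from day 0 to day 6 from 8 to 15. With 2 libraries a day and 3 residual degrees of freedom, small changes such as those of Edem1, Sel1l, Syvn1 and Psat1 are not settled.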

Other observations

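Chaperones outside the ER were counted from 2 further lists. Of 13 tested mitochondrial chaperones and proteases, 12 were higher and none lower at day 2, against 33.6% of all genes in each direction, and 12 were higher and none lower at day 6 against day 0 (35.9% and 35.1% of all genes). From day 2 to day 6, 10 were higher and 2 lower (38.2% and 27.5% of all genes). Hspd1, the chaperonin HSP60, went from 178 ± 4.00 to 892 ± 43.6 CPM (5.01-fold, edgeR adjusted p = 9.71e-07) at day 2. Grpel1, a nucleotide exchange factor of the mitochondrial HSP70, went from 34.4 ± 0.895 to 262 ± 26.6 CPM (7.63-fold, edgeR adjusted p = 6.89e-08) from day 0 to day 6, and Clpx, the unfolding subunit of a matrix protease, from 44.4 ± 0.659 to 147 ± 20.8 CPM (3.32-fold, edgeR adjusted p = 1.90e-06) from day 2 to day 6. Genes of the mitochondrial genome took a growing share of the counts over the same days, and its part in these values was not tested.

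Of 24 cytosolic heat shock genes, 17 were higher and 5 lower at day 2, against 33.6% of all genes in each direction. The shares of all genes higher and lower were 38.2% and 27.5% from day 2 to day 6. From day 0 to day 6 these shares were 35.9% and 35.1%. From day 2 to day 6, 8 were higher and 15 lower (5 and 9 without the day 2 library 76), and from day 0 to day 6, 15 were higher and 5 lower, with 8 higher under library totals. Ahsa1, a co-chaperone of HSP90, went from 51.7 ± 3.85 to 120.4 ± 0.757 CPM (2.33-fold, edgeR adjusted p = 3.45e-06) at day 2, and Hsph1, an exchange factor of HSP70, from 177 ± 10.1 to 74.6 ± 4.12 CPM (2.37-fold, edgeR adjusted p = 2.75e-06) from day 2 to day 6. Cryab, a small heat shock protein, fell and returned: it went from 65.9 ± 7.53 to 10.0 ± 3.74 CPM (6.57-fold, edgeR adjusted p = 1.61e-05) at day 2 and from 10.0 ± 3.74 to 57.6 ± 9.71 CPM (5.74-fold, edgeR adjusted p = 2.17e-05) after it.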
